A study of Saccharomyces cerevisiae with 6 samples.

Results

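The 5.8S rRNA gene is the shortest of the rRNA genes cut from the 35S precursor of budding yeast, Saccharomyces cerevisiae, and lies between internal transcribed spacers 1 and 2 (ITS1 and ITS2). It was chosen by the region name in the deposited tables, which gives 1 gene with 158 positions out of 6858 in 7 regions of the rDNA. NET-seq, short for native elongating transcript sequencing, mapped RNA polymerase I (Pol I) in yeast cells with 6 libraries: 2 of paf1△ cells, which lack PAF1, 2 of cdc73△ cells, which lack CDC73, and 2 of wild-type (WT) cells. The labels give no other strain detail, and they do not say whether the libraries of a genotype came from separate cultures, so the spread between them may be technical. The question behind the series is what Paf1 does in transcription by Pol I.

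As background, Paf1 and Cdc73 are subunits of the Paf1 complex, which travels with RNA polymerase II and has also been linked to elongation by Pol I. NET-seq sequences the 3' end of RNA that copurifies with the polymerase, so the signal at a base stands for RNA that ends there. The 5.8S rRNA pairs with 25S rRNA in the large ribosomal subunit. Its 5' end is made by cleavage and trimming in ITS1 and its 3' end by trimming of an ITS2 extension by the exosome, so an end at the gene border can belong to a finished or maturing RNA as well as to a nascent one. The protocol in the labels does not separate them.

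The tables place the gene at chrXII:464551-464708, minus strand, in build R64, where the RefSeq annotation has RDN58-2 (YNCL0023C). A copy of the same length, RDN58-1, lies at chrXII:455414-455571, and how reads that match both were placed is not given in the sources used here. Positions are counted from 1 at the 5' end of the gene. The whole gene is shown for orientation, read from the base column of the tables, with its last 10 positions in capitals.
5.8S rRNA gene: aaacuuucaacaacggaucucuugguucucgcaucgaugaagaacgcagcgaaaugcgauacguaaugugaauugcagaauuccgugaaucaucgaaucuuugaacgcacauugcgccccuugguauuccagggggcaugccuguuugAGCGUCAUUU
The gene has 41 A, 36 C, 37 G and 44 U, a GC content of 46.2%. The following 4 stretches are shown because they hold most of the positions described below as higher or lower in a genotype. Capitals mark positions named in at least one comparison by the rule given under the processing of the data.
Positions 11 to 30: caacgGAUCuCuugGuucuc
Positions 41 to 70: agaacgcagCgAaaugCgAuacgUAaugug
Positions 111 to 140: aUugCgccccuUGGuauuccagggggcAug
Positions 141 to 158: ccuguuugagcguCAUuu

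The deposited signal is scaled to 1000000 per library, so all values below are relative to the rest of the rDNA and total Pol I occupancy was not measured. The 5.8S gene held 1114592 and 475615 reads in the paf1△ libraries if their smallest value is 1 read, 557109 and 444840 in the cdc73△ libraries, and 8466 and 4138 in the WT libraries. The median position of the gene had 33.5 and 18 reads in WT and at least 1563.5 in every deletion library. Depth therefore moved with genotype in each comparison with WT, and a batch that goes with it cannot be told apart from the deletion. In all 6 libraries 10 positions of the rDNA were at exactly 0. Of these, 9 form 3 runs at the mature 3' ends of 18S, 5.8S and 25S, and in 5.8S they are positions 157 and 158, next to ITS2 position 1. ITS2 position 2 had a signal of 603 and 478 in paf1△, 490 and 624 in cdc73△, and 385 and 416 in WT. What set these 9 positions to 0 is not given in the sources used here, and the signal that ends on the last 2 bases of 5.8S could not be compared.

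The 5.8S gene took a larger share of the rDNA signal in both deletions than in WT. It held 3.76% and 3.35% in the paf1△ libraries, 3.02% and 2.97% in the cdc73△ libraries, and 1.76% and 1.83% in the WT libraries. No 2 genotypes overlapped, and paf1△ was highest. The mean was 3.55% ± 0.288 in paf1△, 2.998% ± 0.0358 in cdc73△ and 1.80% ± 0.0482 in WT (SD, n = 2 each). The paf1△ mean was 1.98-fold that of WT, the cdc73△ mean 1.67-fold that of WT, and the paf1△ mean 1.19-fold that of cdc73△. Each pair gave p = 0.333 in an exact two-sided permutation test, the smallest p that 2 against 2 libraries can give. Counting error alone was small, with Wilson 95% intervals of 1.72% to 1.80% and 1.77% to 1.89% in the WT libraries. These intervals cover counting error only.

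Part of the larger share sat in the last 10 positions. They held 0.742% and 0.603% of all signal in paf1△, 0.652% and 0.750% in cdc73△, and 0.176% and 0.200% in WT. The rest of the gene held 3.01% and 2.75% in paf1△, 2.37% and 2.22% in cdc73△, and 1.58% and 1.63% in WT. Both stretches were higher in either deletion than in WT with no overlap. Leaving those positions out of the gene, an alternative that was added once the data had been seen, cut the difference from WT to 1.27 percentage points for paf1△, against 1.76 with them. For cdc73△ it was 0.690 points without them and 1.20 with them.

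**Figure D1:**
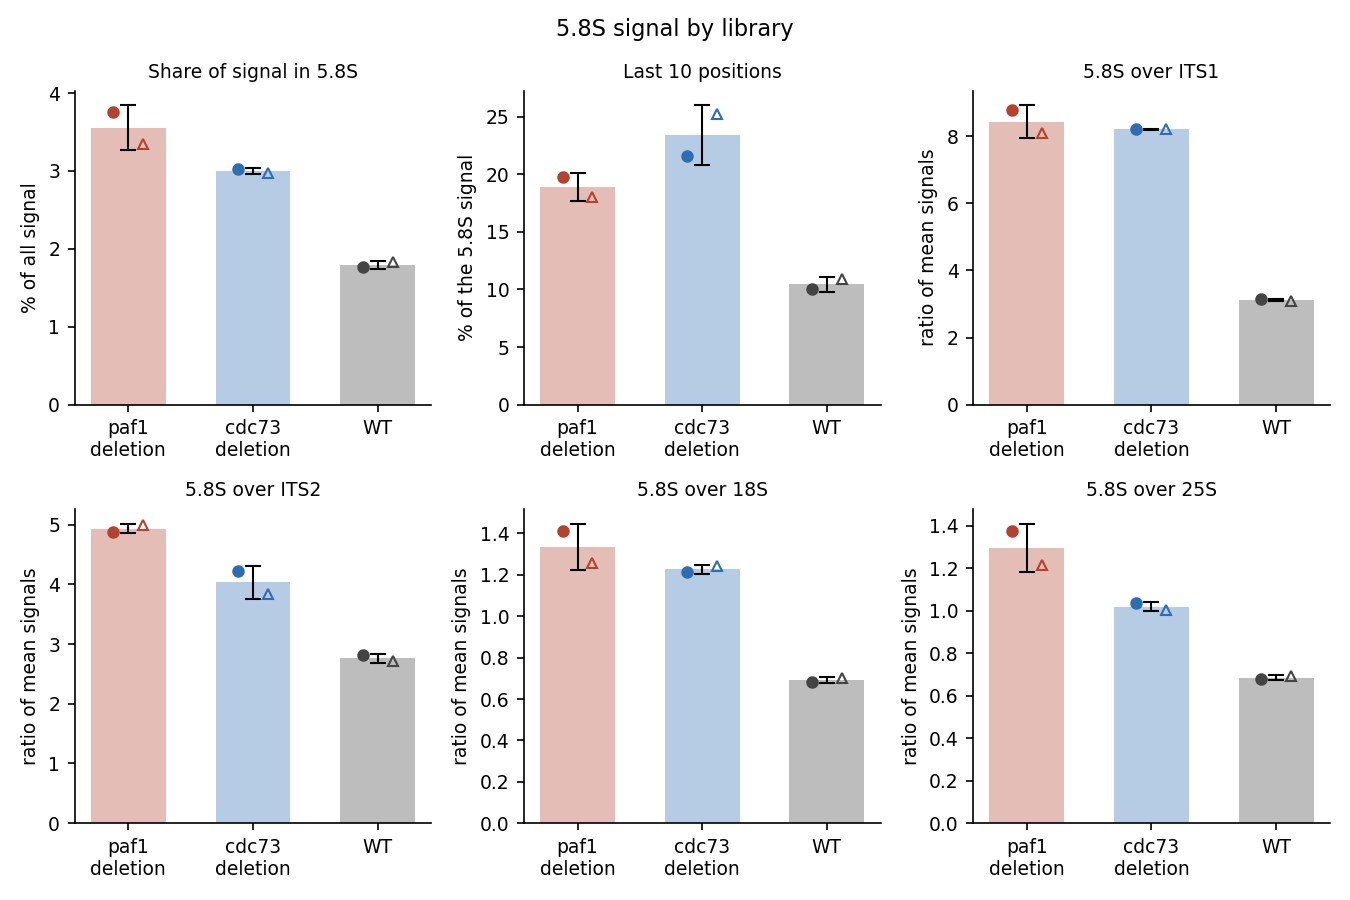
Share of the rDNA signal in 5.8S, share of the 5.8S signal in its last 10 positions, and mean signal per position of 5.8S over that of 4 other regions. Bars are means, error bars SD and points the 2 libraries of paf1△ (left), cdc73△ and WT (right). Both deletions lie above WT in all 6 panels, and in the share of the last 10 positions cdc73△ is highest at 21.6% and 25.2%.

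Mean signal per position showed the same order within each library, where the scaling cancels. The ratio of 5.8S to ITS1 was 8.78 and 8.09 in paf1△, 8.20 and 8.21 in cdc73△, and 3.14 and 3.10 in WT. The ratio to ITS2 was 4.88 and 4.99 in paf1△, 4.23 and 3.83 in cdc73△, and 2.81 and 2.71 in WT. Both deletions lay above WT with no overlap in either ratio, and the paf1△ and cdc73△ values overlapped only for ITS1. Against the other rRNA genes the gene lay on the lower side in WT and on the higher side in the deletions. The ratio to 18S was 1.41 and 1.26 in paf1△, 1.21 and 1.24 in cdc73△, and 0.681 and 0.700 in WT. The ratio to 25S was 1.38 and 1.21 in paf1△, 1.04 and 1.00 in cdc73△, and 0.678 and 0.693 in WT. As log2 differences from WT, paf1△ was higher by 1.43 for ITS1, 0.84 for ITS2, 0.95 for 18S and 0.92 for 25S. For cdc73△ they were 1.39, 0.55, 0.83 and 0.57 in the same order. ITS1 itself averaged 26.7 ± 0.634 in paf1△, 23.1 ± 0.301 in cdc73△ and 36.4 ± 1.28 in WT. Part of the ITS1 difference was therefore a lower ITS1 signal in the deletions. Every pair without overlap gave p = 0.333 in the exact permutation test, and paf1△ against cdc73△ for ITS1 gave an exact permutation p of 1.

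In mean signal per position, 5.8S was the densest of the 7 regions in paf1△ and cdc73△ and stood behind 25S, 18S and the 5' external transcribed spacer in WT. It averaged 225 ± 18.3 in paf1△, 190 ± 2.27 in cdc73△ and 114 ± 3.06 in WT. The 25S gene averaged 174 ± 1.15 in paf1△, 186 ± 1.77 in cdc73△ and 166 ± 2.06 in WT. In cdc73△ the densities of 5.8S and 25S were close, with 191 and 188 for 5.8S and 185 and 187 for 25S.

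Along the gene the signal was low at the start, spread over the 5' part, and concentrated in a few single bases toward the 3' end. The first 10 positions had a signal of at most 72.9 in any library and together held 0.346% and 0.404% of the 5.8S signal in paf1△, 0.247% and 0.297% in cdc73△, and 1.09% and 0.870% in WT. As a ratio to the mean of the gene these 10 positions stood at 0.0547 and 0.0639 in paf1△, 0.0390 and 0.0469 in cdc73△, and 0.172 and 0.137 in WT. All genotypes were thus far below the gene's own mean there, and WT least so. The start of 18S had the same order, at 0.310 and 0.283 in paf1△, 0.221 and 0.280 in cdc73△, and 0.636 and 0.687 in WT, while for 25S paf1△ (0.120 and 0.106) and WT (0.113 and 0.1005) overlapped.

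**Figure D2:**
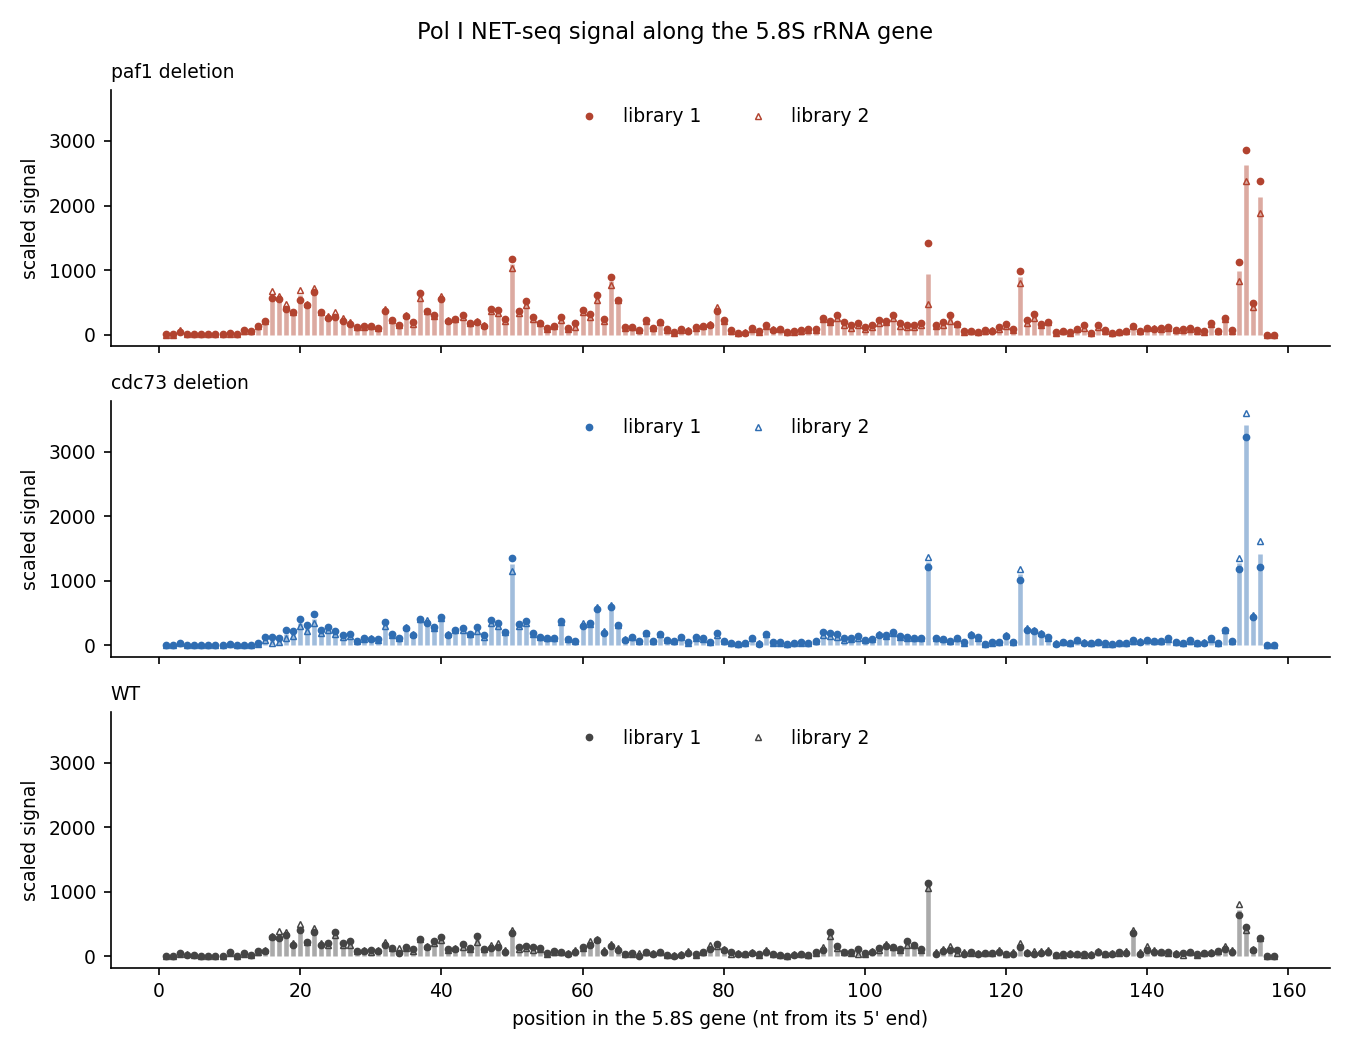
Scaled signal at each position of 5.8S in paf1△ (top), cdc73△ (middle) and WT (bottom) on a common axis. Bars are means of 2 libraries, filled circles library 1 and open triangles library 2. Both deletions have tall bars at positions 50, 122, 154 and 156. Position 109 is the tallest in WT and is tall in both deletions too.

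The tallest single bases differed between genotypes. In paf1△ the 5 highest means were at positions 154, 156, 50, 153 and 109, in cdc73△ at 154, 156, 109, 153 and 50, and in WT at 109, 153, 20, 154 and 22. Position 109, an A, had a signal of 1416 and 473 in paf1△, 1217 and 1362 in cdc73△, and 1131 and 1062 in WT. The paf1△ libraries disagreed 3-fold there and enclosed the other genotypes, and limma called no difference in any comparison (adjusted p 0.216 to 0.476). Position 20, a U near the start of the gene, had 536 and 694 in paf1△, 407 and 297 in cdc73△, and 404 and 491 in WT. The neighbouring position 22, also a U, had 664 and 716 in paf1△, 485 and 347 in cdc73△, and 369 and 434 in WT. At position 22 only the paf1△ libraries stood clear of WT (log2 0.72, SE 0.16, limma adjusted p 0.00714), and this call was lost without paf1△ replicate 2.

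The top 10 positions of a library held 34.0% and 31.0% of the 5.8S signal in paf1△, 37.4% and 41.7% in cdc73△, and 27.1% and 27.8% in WT. The Gini coefficient, which is 0 for an even spread and 1 for all signal on a single base, was 0.545 and 0.537 in paf1△, 0.577 and 0.604 in cdc73△, and 0.504 and 0.5004 in WT. Signal in the gene was therefore more uneven in both deletions, and most so in cdc73△, with no overlap. Over the whole rDNA the order was another one, with 0.506 and 0.512 in paf1△, 0.557 and 0.572 in cdc73△, and 0.559 and 0.554 in WT.

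The 3' end of the gene carried the largest changes. The last 10 positions held 19.8% and 18.01% of the 5.8S signal in paf1△, 21.6% and 25.2% in cdc73△, and 10.005% and 10.9% in WT, and no genotypes overlapped. Most of this lay in positions 153 to 156, the last 4 above 0, with 18.2% and 16.5% in paf1△, 20.04% and 23.7% in cdc73△, and 8.30% and 8.75% in WT. In paf1△ against cdc73△ the difference was -4.51 percentage points over the last 10 positions and -3.01 points over positions 154 to 156. At position 156 alone, which held 6.32% and 5.64% in paf1△, 4.03% and 5.45% in cdc73△, and 1.59% and 1.55% in WT, it was 1.24 points. Each of these pairs gave p = 0.333 in the exact permutation test for the last 10 positions. Next to the gene, the first 10 positions of ITS2 averaged 344 and 265 in paf1△, 340 and 435 in cdc73△, and 203 and 258 in WT, and both deletions lay above WT there too. The last 10 positions of ITS1 averaged 11.4 and 8.48 in paf1△, 4.85 and 5.19 in cdc73△, and 5.62 and 6.64 in WT. The 3' ends of the other rRNAs were also above their gene's mean, by 5.08 and 6.77 times in paf1△, 3.31 and 4.22 times in cdc73△, and 1.70 and 2.41 times in WT for 18S. For 25S the figures were 4.17 and 4.02 in paf1△, 3.28 and 3.32 in cdc73△, and 2.14 and 2.53 in WT, and for 5.8S 3.12 and 2.85 in paf1△, 3.41 and 3.98 in cdc73△, and 1.58 and 1.73 in WT.

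Position 154, a C 4 bases before the end of the gene, had a signal of 2864 and 2376 in paf1△, 3221 and 3601 in cdc73△, and 446 and 403 in WT. Position 156, a U, had 2375 and 1888 in paf1△, 1218 and 1619 in cdc73△, and 281 and 283 in WT. At both bases each deletion library was several times above each WT library. The A between them, position 155, had 483 and 429 in paf1△, 433 and 471 in cdc73△, and 100 and 111 in WT. Position 153, a U, had 1130 and 837 in paf1△, 1187 and 1352 in cdc73△, and 637 and 806 in WT, so it was high in every genotype. There limma called the cdc73△ rise (log2 0.79, SE 0.16, adjusted p 0.00848), lost without cdc73△ replicate 2, but not the paf1△ difference (log2 0.42, SE 0.22, adjusted p 0.148).

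Single positions were tested over the whole rDNA with limma on log2 of the signal plus a pseudocount, at an adjusted p under 0.05. This scale understates the change of low positions. Of the 158 positions 156 were tested, and the 2 at 0 were not. In paf1△ against WT 97 of the 156 were called higher, against 29.6% of all tested positions, and 4 were called lower, against 19.6%. The median log2 fold change was 0.60 in 5.8S and 0.09 over all positions. Setting the library medians equal shifts the median of all positions from 0.09 to -0.01. It leaves 80 higher and 8 lower in the gene, against 1501 and 1655 of 6839 over all positions. Of the 97 higher and 4 lower positions, 25 and 1 changed by at least 1 on this log2 scale, which includes the pseudocount. Positions outside the gene were not counted at this cut, so these numbers are not shown to be particular to 5.8S. Without either paf1△ library fewer positions were called, in the gene and over all positions. The median log2 fold change in 5.8S was 0.51 without paf1△ replicate 1 and 0.66 without paf1△ replicate 2. Over all positions it was 0.086 and 0.098. Falls were more numerous without either WT library, again in the gene and over all positions. With all libraries thinned to the depth of the shallowest, 58 were higher and 3 lower, against 1204 and 939 of 6745 over all positions.

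The largest rise in paf1△ over WT was at position 156 (log2 2.71, SE 0.19, adjusted p 7.5e-05 by limma), followed by position 154 (log2 2.49, SE 0.21, adjusted p 0.000118). Inside the gene, position 122, a U, had a signal of 990 and 793 in paf1△, 1018 and 1188 in cdc73△, and 148 and 199 in WT. Position 64, a U, had 898 and 771 in paf1△, 597 and 631 in cdc73△, and 156 and 186 in WT. Both bases were several times higher in every deletion library than in either WT library. In paf1△ against WT they rose by log2 2.09 (SE 0.18) and 2.01 (SE 0.15). The base after each rose as well: position 65, an A, by 1.88 (SE 0.14), and positions 123 and 124, both G, by 1.24 and 1.71. The other named rises were positions 155 (1.72), 52 (1.52), 57 (1.43) and 50 (1.40).

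Only 2 positions were named as falls in paf1△ against WT. Position 138, an A, had a signal of 128 and 127 in paf1△, 82.1 and 64.8 in cdc73△, and 364 and 403 in WT. Every WT library was more than 2-fold above every deletion library. It fell by 1.30 on the log2 scale (SE 0.13, limma adjusted p 0.000249). Position 95, a G, fell by 0.62 (SE 0.14, adjusted p 0.00866), with 208 and 200 in paf1△, 185 and 144 in cdc73△, and 369 and 310 in WT. The call at position 95 was lost when either paf1△ library was left out.

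**Figure D3:**
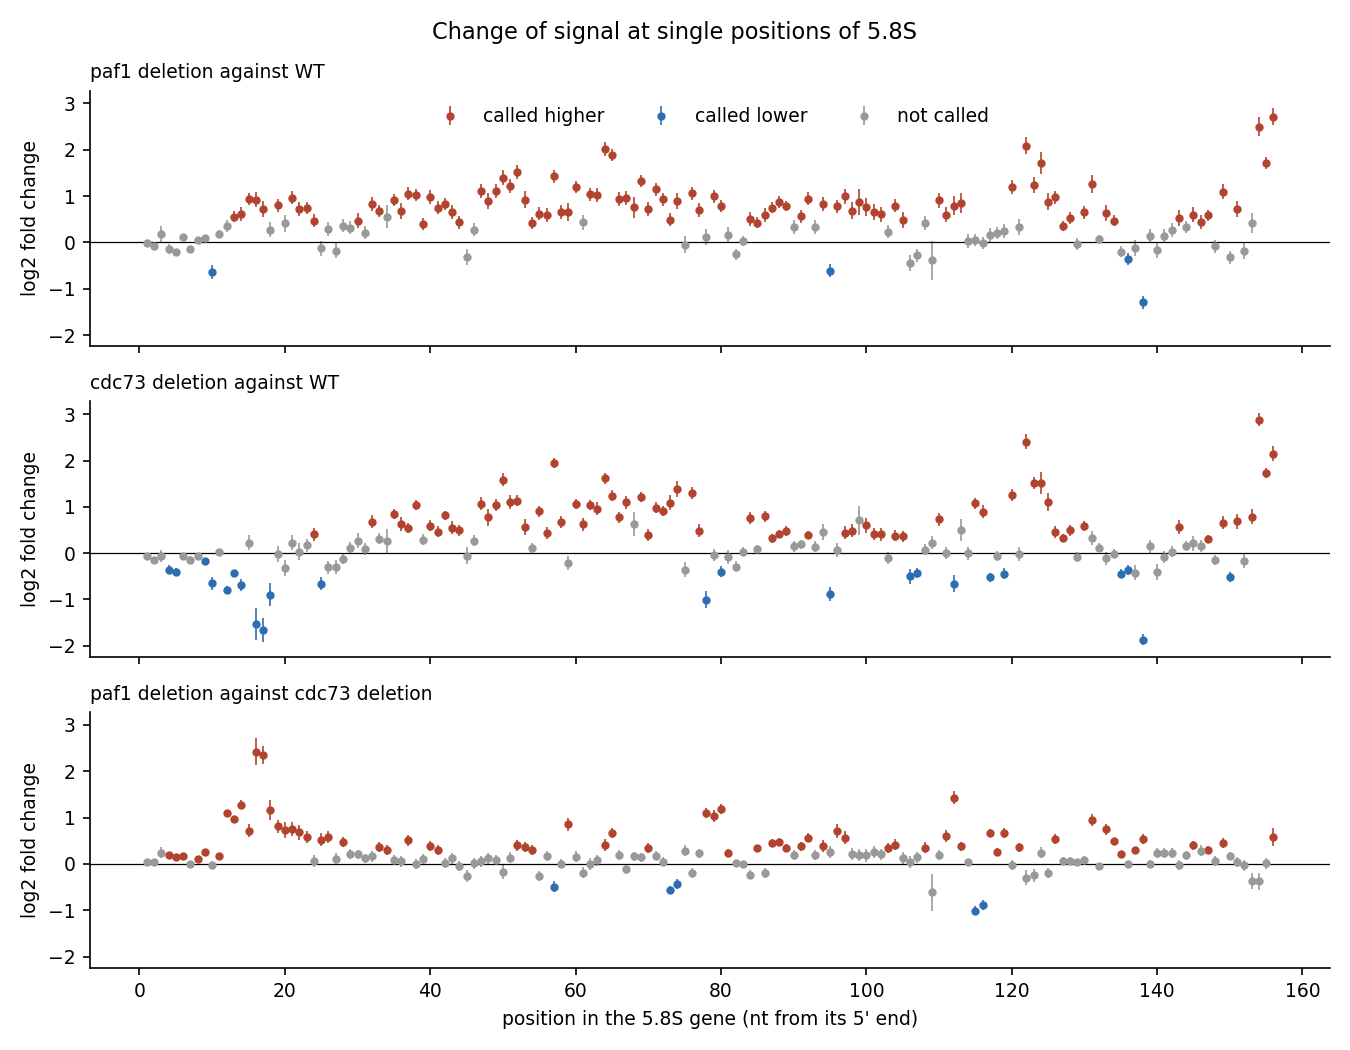
Log2 fold change of the signal at each tested position of 5.8S with its standard error, for paf1△ against WT (top), cdc73△ against WT (middle) and paf1△ against cdc73△ (bottom), coloured by the limma call at adjusted p under 0.05. In the top panel 97 positions are higher and 4 lower, in the middle panel 71 and 23, and in the bottom panel the tallest points are positions 16 and 17.

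In cdc73△ against WT 71 of the 156 positions were called higher, against 30.0% of all tested positions, and 23 lower, against 29.4%. The median log2 fold change was 0.28 in 5.8S and -0.0049 over all positions. Of the 71 higher and 23 lower positions, 25 and 4 changed by at least 1 on the log2 scale with its pseudocount, a cut again not counted over all positions. Left-out libraries moved the number of calls in the gene and over all positions, down without either cdc73△ library and up without either WT library. The median log2 fold change in 5.8S was 0.26 without cdc73△ replicate 1 and 0.33 without cdc73△ replicate 2. Over all positions it was -0.018 and 0.012. The thinned libraries gave 46 higher and 14 lower, against 1387 and 1447 of 6733 over all positions.

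The largest rises in cdc73△ over WT are given here beside the paf1△ values, and both comparisons use the same WT libraries. Position 154 rose by log2 2.88 (SE 0.15, adjusted p 0.000122), position 122 by 2.40 (SE 0.16, adjusted p 0.000198) and position 156 by 2.15 (SE 0.16, adjusted p 0.00026). Position 57, a C, had a signal of 276 and 228 in paf1△, 380 and 362 in cdc73△, and 64.6 and 62.0 in WT, and rose by 1.95 (SE 0.11) in cdc73△. It was lowest in WT, and here cdc73△ was above paf1△. Position 50, a C, had 1170 and 1028 in paf1△, 1355 and 1157 in cdc73△, and 367 and 407 in WT, a rise of 1.59 in cdc73△. The other named rises were positions 155 (1.73), 64 (1.62), 123 (1.52), 124 (1.51) and 65 (1.24).

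The 8 named falls in cdc73△ against WT were positions 138, 17, 16, 18, 95, 25, 106 and 107. Position 138 fell by 1.86 (SE 0.13, adjusted p 0.000207), the largest of them. Position 17, an A, had a signal of 554 and 596 in paf1△, 108 and 48.2 in cdc73△, and 281 and 385 in WT. Position 16, a G, had 569 and 679 in paf1△, 133 and 38.8 in cdc73△, and 292 and 319 in WT. At both bases cdc73△ was lowest and paf1△ highest with no overlap, although the cdc73△ libraries differed more than 2-fold from each other. To be named as a rise or fall, a position had to show no overlap in that comparison, so this is no separate support. In cdc73△ against WT position 17 fell by 1.66 (SE 0.26, adjusted p 0.00311) and position 16 by 1.52 (SE 0.34, adjusted p 0.0112). Positions 18 and 25 fell by 0.90 and 0.66, calls lost without cdc73△ replicate 2. Positions 106 and 107 fell by 0.50 and 0.43, calls lost when either cdc73△ library was left out and with thinned libraries.

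The direct comparison of the deletions answers where loss of PAF1 and loss of CDC73 differed. In paf1△ against cdc73△ 67 of the 156 positions were called higher, against 34.4% of all tested positions, and 5 lower, against 20.6%. The median log2 fold change was 0.20 in 5.8S and 0.07 over all positions. After the library medians were set equal, 45 positions were called higher and 15 lower, against 1746 and 1976 of 6846 over all positions. The split thus depended on the scaling. With thinned libraries 16 were higher and 3 lower, against 539 and 371 of 6698 over all positions. That thinning cut both deletions to the 226202 reads of WT replicate 2, a library outside this comparison. A call lost with thinned libraries was thus lost at the depth of WT, not at that of the shallower deletion library. Leaving out cdc73△ replicate 2 lowered the count of rises, and leaving out paf1△ replicate 1 raised that of falls. Of the 67 higher and 5 lower positions, 9 and 1 changed by at least 1 on the log2 scale with its pseudocount, again with no count over all positions.

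The largest differences between the deletions lay near the start of the gene. Position 16 was higher in paf1△ by log2 2.42 (SE 0.29, limma adjusted p 0.000232) and position 17 by 2.35 (SE 0.20, adjusted p 3.74e-05). The named rises went on through positions 18 (1.16), 19 (0.81) and 21 (0.75). A further group lay at positions 78 to 80. Position 80, an A, had a signal of 231 and 206 in paf1△, 71.2 and 68.4 in cdc73△, and 102 and 111 in WT. Position 78, a G, had 144 and 162 in paf1△, 46.2 and 46.2 in cdc73△, and 110 and 168 in WT. At position 80 the 3 genotypes stood apart, while at position 78 paf1△ lay within the WT range. Against cdc73△ they rose by 1.18 and 1.10, position 79 by 1.03 and position 59 by 0.85. Position 112, a U, had 303 and 214 in paf1△, 64.2 and 64.8 in cdc73△, and 100 and 159 in WT, a rise of 1.43 (SE 0.15, adjusted p 9.44e-05). Its call, and that of position 59, was lost with thinned libraries.

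The named falls in paf1△ against cdc73△ were positions 115, 57 and 74. Position 115, a C, had a signal of 61.3 and 59.4 in paf1△, 168 and 169 in cdc73△, and 60.4 and 53.1 in WT. Here cdc73△ alone was high, and paf1△ fell below it by 1.00 (SE 0.10, adjusted p 8.83e-05). Positions 57 and 74 fell by 0.49 and 0.44, and both calls were lost with thinned libraries. At the bases that were highest in both deletions the test called little: position 154 gave -0.38 (SE 0.19, adjusted p 0.122), position 122 -0.30 (SE 0.16, adjusted p 0.144) and position 50 -0.18 (SE 0.15, adjusted p 0.332). Position 156 was higher in paf1△ by 0.58 (SE 0.20, adjusted p 0.0349), a call lost without cdc73△ replicate 1 or paf1△ replicate 1, with medians set equal and with thinned libraries.

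Windows of 10 nt pool the reads of neighbouring positions. Of the 16 windows of the gene, paf1△ against WT had 13 called higher, against 37.0% of all windows, and 0 lower, against 27.9%. The 3 not called were positions 1 to 10, 101 to 110 and 131 to 140. The largest rises were in positions 151 to 158 (log2 1.86, SE 0.16), 121 to 130 (1.69, SE 0.17) and 61 to 70 (1.54, SE 0.12). In cdc73△ against WT 9 windows were higher, against 33.5% of all windows, and 3 lower, against 40.9%. The falls were positions 1 to 10 (-0.80, SE 0.11), 11 to 20 (-0.86, SE 0.22) and 131 to 140 (-0.82, SE 0.12), and the rises again led with positions 151 to 158 (1.94), 121 to 130 (1.78) and 61 to 70 (1.30).

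In paf1△ against cdc73△ 8 windows were higher, against 33.5% of all windows, and 0 lower, against 18.6%. Positions 11 to 20 summed to a signal of 2889 and 3268 in paf1△, 1275 and 775 in cdc73△, and 1697 and 1992 in WT. This window was highest in paf1△ and lowest in cdc73△ with no overlap (log2 1.58, SE 0.18, adjusted p 8.03e-05 by limma). The other 7 were smaller, from 0.33 for positions 111 to 120 to 0.65 for positions 131 to 140. Positions 151 to 158 summed to 7192 and 5821 in paf1△, 6367 and 7347 in cdc73△, and 1637 and 1859 in WT, and the deletions overlapped there. Without cdc73△ replicate 2 fewer windows were called higher, in the gene and over the whole rDNA. The median log2 fold change of the windows was then 0.28 in 5.8S and 0.079 over all windows.

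**Figure D4:**
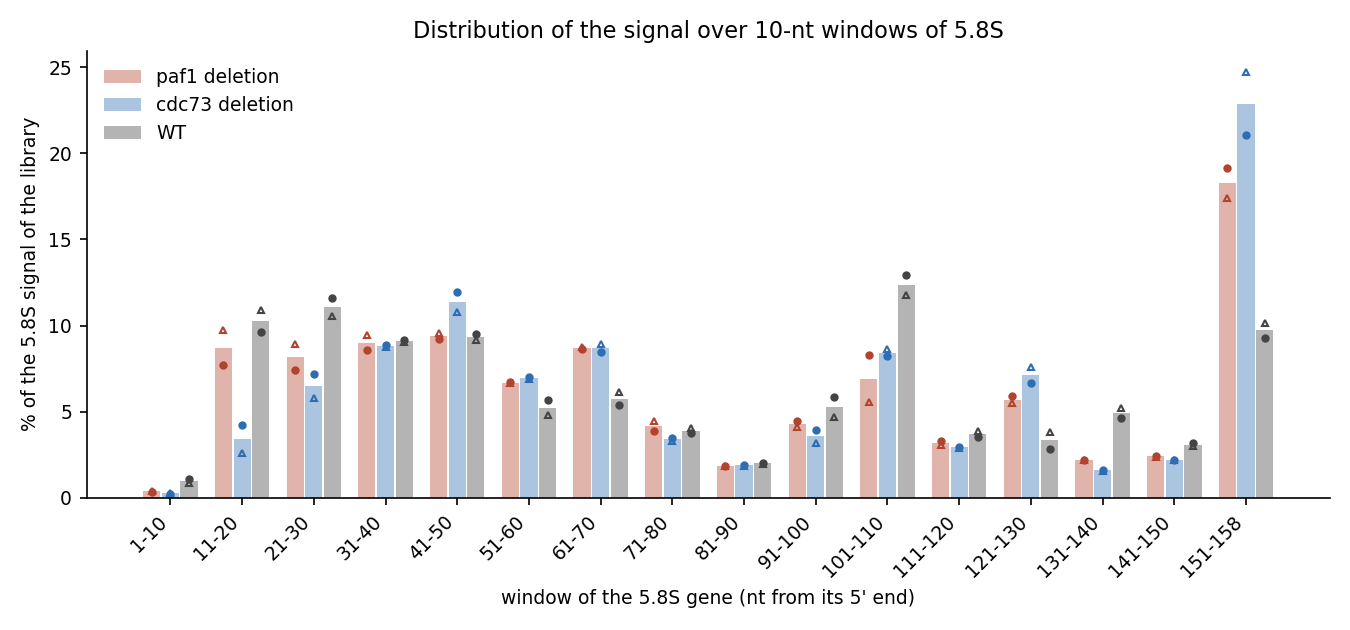
Percent of a library's 5.8S signal in each 10-nt window of the gene (the last window has 8 positions), for paf1△ (left bar of each group), cdc73△ (middle) and WT (right). Bars are means and points the 2 libraries. Positions 11 to 20 hold 7.69% and 9.76% in paf1△, 4.22% and 2.61% in cdc73△, and 9.63% and 10.9% in WT, while the last window is highest in cdc73△.

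Taking the level of the gene out, by dividing each value by the mean of its region, asks whether the shape of the profile changed. In paf1△ against WT 23 positions were then called higher, against 28.4% of all tested positions, and 32 lower, against 18.4%. In cdc73△ against WT 31 were higher, against 30.1%, and 53 lower, against 28.7%. In paf1△ against cdc73△ 40 were higher, against 34.8%, and 17 lower, against 20.7%. The division centres the gene, so the balance of higher and lower calls depends on the centring and is no result. Dividing by the region's median gave 24 higher and 24 lower in paf1△ against WT, 36 and 42 in cdc73△ against WT, and 29 and 20 in paf1△ against cdc73△. Leaving the last 10 positions out of the mean gave 27 and 23, 38 and 39, and 31 and 20 in the same order. Some named positions stood out in shape as well, but they were named for their change in these same libraries, so this is no separate support. In paf1△ against WT position 50 was higher by 0.49 relative to the gene, and position 22 gave -0.18 and was not called. Position 156 was higher by 1.80 and position 154 by 1.56, and position 138 was -2.05. In cdc73△ against WT the same bases gave 1.47, 2.18 and -2.42, and positions 16 and 17 -2.07 and -2.21. Leaving out either paf1△ library lowered the number of calls in the first comparison, in the gene and over all positions. The second comparison changed in the same way without either cdc73△ library, and the third without cdc73△ replicate 2.

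The base at the RNA 3' end was compared as the mean signal of all positions with a base over the mean of the gene. C stood at 1.14 and 1.14 in paf1△, 1.39 and 1.38 in cdc73△, and 0.977 and 0.943 in WT. G stood at 0.660 and 0.717 in paf1△, 0.645 and 0.603 in cdc73△, and 0.889 and 0.912 in WT. Deletions were above WT for C and below it for G with no overlap. A stood at 1.06 and 1.01 in paf1△, 0.915 and 0.901 in cdc73△, and 1.17 and 1.11 in WT, and U at 1.11 and 1.11 in paf1△, 1.06 and 1.12 in cdc73△, and 0.958 and 1.02 in WT. The exact permutation p was 0.333 for each of these pairs without overlap. Much of the C difference was position 154 and its neighbours: without the last 10 positions the difference from WT was 0.05 for paf1△ and 0.19 for cdc73△, against 0.18 and 0.43 with them. For G it was -0.13 and -0.17, against -0.21 and -0.28.

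The base that follows the RNA 3' end, the next to be added, differed in another way. Positions followed by A stood at 1.25 and 1.29 in paf1△, 1.28 and 1.30 in cdc73△, and 1.03 and 0.970 in WT. Positions followed by C stood at 0.755 and 0.690 in paf1△, 0.824 and 0.823 in cdc73△, and 1.17 and 1.23 in WT. Both deletions lay apart from WT on opposite sides for these bases. Positions followed by U or G separated the deletions, in opposite directions. Those followed by G stood at 0.991 and 1.003 in paf1△, 1.17 and 1.15 in cdc73△, and 0.930 and 0.895 in WT. Those followed by U stood at 0.986 and 0.990 in paf1△, 0.750 and 0.753 in cdc73△, and 0.883 and 0.926 in WT. The 4 groups come from one gene of 158 bases and rest in part on a few tall bases. Position 154, the tallest in both deletions, precedes an A. Positions 109 and 153, the tallest in WT, each precede a C. These ratios were not computed without such bases, so they are no result about the next base in general.

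**Figure D5:**
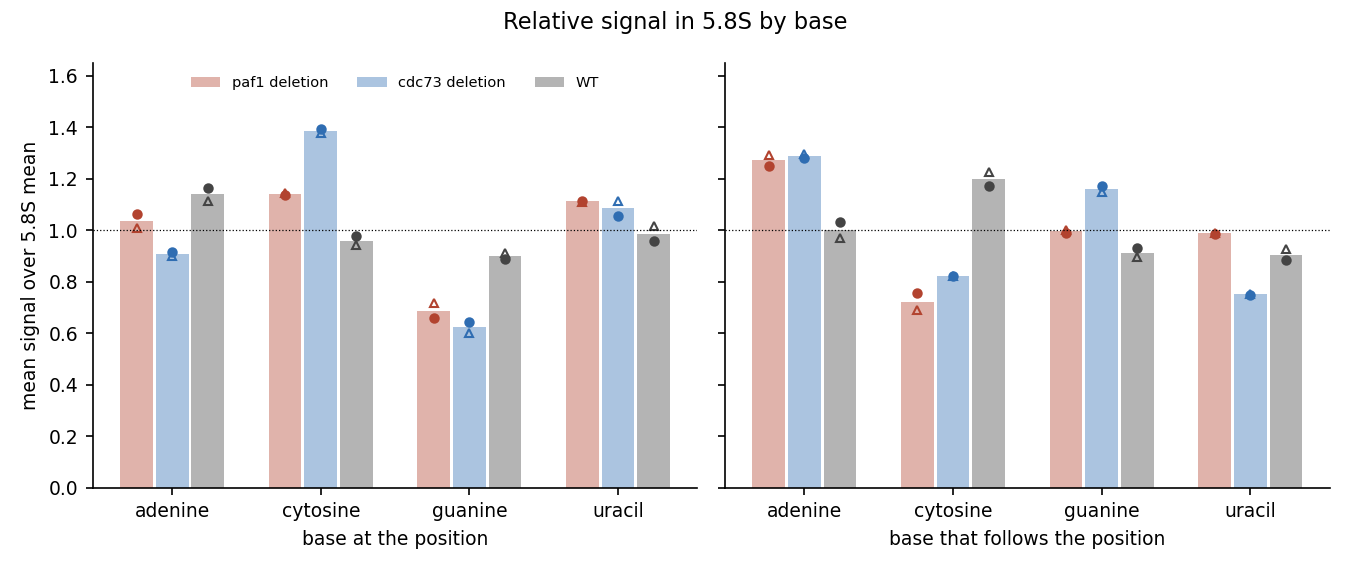
Mean signal of 5.8S positions by the base at the position (left panel) and by the base that follows it (right panel), each over the mean of the gene in the same library. Bars are means of 2 libraries and points the libraries, with paf1△ left, cdc73△ middle and WT right within each base. Positions with C reach 1.39 and 1.38 in cdc73△, and positions followed by C stand above 1 in WT, at 1.17 and 1.23, and below 1 in both deletions.

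By the local rule that a pause site exceeds the mean by 3 SD of the 50 nt on either side in both libraries, paf1△ had 4 sites, cdc73△ 2 and WT 3. They were positions 50, 64, 154 and 156 in paf1△, positions 50 and 154 in cdc73△, and positions 20, 109 and 153 in WT. By this rule no WT site was a site in either deletion, and both cdc73△ sites were sites in paf1△. Sites outside the gene were not counted, so these counts and the lack of sites shared with WT are not shown to be particular to it. Sites were not counted with thinned libraries either, so an effect of the lower WT depth on them was not tested. With 4 SD the counts were 3 in paf1△, 2 in cdc73△ and 1 in WT, and with 25 nt on either side 5 in paf1△, 4 in cdc73△ and 2 in WT. At that width position 109 was a site in cdc73△ and WT but not in paf1△, so which sites the genotypes shared depended on the width. None of the 3 WT sites was called lower in a deletion by limma.

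Across the 156 positions with signal and the 2 at 0, libraries of a genotype had nearly the same profile, with Spearman rho 0.988 for paf1△, 0.983 for cdc73△ and 0.934 for WT. Between genotypes rho averaged 0.894 for paf1△ and cdc73△, 0.849 for paf1△ and WT, and 0.758 for cdc73△ and WT. The same averages over all positions of the rDNA were 0.831, 0.733 and 0.644. These values are across positions of a library, which share its depth and base composition, and describe the libraries only.

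By the root mean square distance of the centred log2 shares over the 6 libraries, the regions nearest to 5.8S were ITS2 (0.350), 25S (0.381) and 18S (0.425). A share that did not change at all would lie at 0.421, so none of these regions followed 5.8S closely. The share of ITS2 was 1.13% and 0.985% in paf1△, 1.05% and 1.14% in cdc73△, and 0.919% and 0.992% in WT, so paf1△ and WT overlapped there. Among 100-nt windows outside the gene, positions 3201 to 3300 of the rDNA, at the border of ITS2 and 25S, were closest (0.142), then 6101 to 6200 (0.158) and 6001 to 6100 (0.204) in 25S. The closest held 0.776% and 0.776% in paf1△, 0.652% and 0.600% in cdc73△, and 0.441% and 0.483% in WT, the same order as 5.8S. Choosing the window by its closeness in these same libraries favours such an order, so it is no separate result.

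In the authors' deposited table for paf1△ against WT, 52 of 156 positions of 5.8S had an unadjusted p under 0.05, against 21.6% of all positions, 50 of them with a ratio above 1. In the authors' deposited table for cdc73△ against WT it was 39 of 156, a smaller share than the 27.1% of all positions, with 31 above 1. In the authors' deposited table for paf1△ against cdc73△ it was 23 of 156, with 20 above 1. This too was a smaller share than the 22.5% of all positions. By that measure 5.8S had more calls than the rDNA at large only in paf1△ against WT. The median ratio of 5.8S in these tables was 1.91, 1.34 and 1.26, where the median of all positions was 1.15, 0.988 and 1.12.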

How the data were processed

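Pol I NET-seq was deposited as 3 tables, 1 for each pair of genotypes, for 6 libraries. Per the labels' protocols, Pol I was immunoprecipitated from frozen lysate and a linker with a molecular identifier was joined to RNA 3' ends. The submitters' processing notes name build R64 and, in no order, STAR 2.7.1a, R 4.3.2, cutadapt 3.4, bedtools 2.28.0, bcl2fastq 2.20.00, SAMtools 1.6 and FastQC 0.11.7. No source used here says how the identifiers were used.

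The signal the authors deposited is reads per position scaled so that positions 1 to 6739 sum to 1000000, as the values show. The authors' tables also hold their means, a ratio, a difference score and an unadjusted p-value, and the deposited ratio is that of the second over the first genotype. Divided by the smallest value of its library, the signal came out whole (to 0.1 read) at 99.9% and 100.0% of the cdc73△ positions and at 100% of the WT positions. On these recovered reads edgeR 4.0.16 called 76 positions of 5.8S higher and 24 lower in cdc73△ against WT. Over all positions it called 2272 and 2050 of 6839.

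Because the values are not counts, limma (lmFit and eBayes with trend, version 3.58.1, R 4.3.3) was run on log2(signal + pseudocount) over all positions above 0 in at least 2 of 4 libraries, with no replicate term. As pseudocount 0.5 times the median of the values above 0 was added, which is 48.1 for paf1△ against WT, 44.3 for cdc73△ against WT and 47.4 for paf1△ against cdc73△. P-values were adjusted by Benjamini-Hochberg over all positions, at 0.05. The 10-nt windows and the values over the region mean were fitted in the same way, and single values per library were compared by exact two-sided permutation tests. Python 3.11.15, numpy 2.4.6, pandas 2.3.3, scipy 1.17.1 and matplotlib 3.10.9 were used, and the limma step was tested on simulated data.

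The positions named are the 5 highest of each genotype, the pause sites, and, per comparison, up to 10 rises and 10 falls that were called, did not overlap between the genotypes and had a mean no lower than the median tested position. The gene, the lists and the tests were chosen with earlier results of these data known. Replicate numbers are shared by the genotypes, but no label says what they mark. Alternatives covered pseudocount, filters, scaling, thinned depth, window size, the replicate block and leaving out each library.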

Additional observations from a re-analysis of the deposited data

Results flagged for a closer look

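At 6 of the 156 tested positions of 5.8S paf1△ was called higher than WT and cdc73△ lower. The difference between the deletions, tested by limma over all positions, passed an adjusted p of 0.05 at each. Over all positions 29.6% were called higher in paf1△ against WT and 29.4% lower in cdc73△ against WT. Positions of the rDNA with both calls were not counted, so the 6 are not shown to be particular to the gene. The log2 difference of paf1△ over cdc73△ was 0.97 at position 13, 1.28 at position 14, 2.42 at position 16, 2.35 at position 17, 1.18 at position 80 and 1.43 at position 112. In paf1△ against WT these positions changed by 0.56, 0.61, 0.92, 0.72, 0.79 and 0.79, and in cdc73△ against WT by -0.43, -0.69, -1.52, -1.66, -0.40 and -0.66. Positions 13 and 14 were low, with a signal of 56.4 and 49.0 in paf1△, 5.64 and 1.94 in cdc73△, and 18.7 and 22.1 in WT at position 13. The call at position 112 was lost with thinned libraries.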

How the results depend on the processing

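Of the values compared under alternatives, 351 kept their direction and size class, 41 counts or values moved and 7 changed sign. Named positions kept their call in 794 of their alternatives and lost it in 28, and named windows in 215 and 16. The losses were uneven: in paf1△ against cdc73△ with thinned libraries 8 named positions kept their call and 8 lost it. The shallowest library was WT replicate 2, and its depth was used in that comparison too. Thinning all libraries to the shallowest left 58 higher positions in paf1△ against WT, 46 higher and 14 lower in cdc73△ against WT, and 16 higher and 3 lower in paf1△ against cdc73△. Equal library medians gave 8 lower in paf1△ against WT and 15 lower in paf1△ against cdc73△. One fit of all 6 libraries gave 7 lower in paf1△ against WT, and a mean at or above the 25th percentile 15 lower in cdc73△ against WT. Windows of 20 nt, of which the gene has 8, gave 7 higher in paf1△ against WT, 1 lower in cdc73△ against WT and 4 higher in paf1△ against cdc73△. For these changes the cause was not tested, apart from the smaller number of windows.

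Leaving out 1 library at a time gave, for positions, 44 to 105 higher and 1 to 11 lower in paf1△ against WT, 34 to 79 higher and 6 to 35 lower in cdc73△ against WT, and 42 to 74 higher and 5 to 10 lower in paf1△ against cdc73△. For windows it gave 0 to 1 lower in paf1△ against WT, and 3 to 10 higher and 0 to 1 lower in paf1△ against cdc73△. For values over the region mean it gave 6 to 31 higher and 5 to 43 lower in paf1△ against WT, 9 to 39 higher and 17 to 73 lower in cdc73△ against WT, and 18 to 42 higher and 9 to 19 lower in paf1△ against cdc73△. In these fits the lone library of a genotype is assumed to vary like the other pair.

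The sign changed for the following values. The 3' end share of paf1△ minus cdc73△ was 1.24 points over the last 3 positions, of which only position 156 is above 0, and -3.01 points over the last 3 with signal, an alternative added after seeing the data. For paf1△ against cdc73△ the log2 density over ITS1 was -0.20 with medians per position and -0.0208 to 0.0965 with a library left out. Relative occupancy at A in paf1△ against WT was 0.0177 with positions capped at the 99th percentile. At U in paf1△ against cdc73△ it was -0.0135 without the last 10 positions, -0.0626 with the cap and -0.00318 to 0.0551 with a library left out. Pause sites numbered 4 in cdc73△ with 25 nt on either side and 1 in WT at 4 SD. Apart from position 156 the cause was not tested.

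Replicate numbers alone are shared: the correlation of same-numbered deviations was 0.113 for paf1△ and WT, 0.0351 for cdc73△ and WT, and -0.227 for paf1△ and cdc73△. With the replicate block 100 positions were higher and 4 lower in paf1△ against WT, 72 and 24 in cdc73△ against WT, and 61 and 5 in paf1△ against cdc73△. With the numbers crossed in the block, a setting added after seeing the data, paf1△ against cdc73△ had 71 higher and 11 lower. At 18 and 33.5 reads per median position, the WT libraries limit what single positions can show.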
